A study of Homo sapiens with 12 samples.

Results

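The untreated state of 2 human triple-negative breast cancer lines, MDA-MB-231 and HCC38, was compared across all genes by RNA-seq. The comparison used the 3 untreated MDA-MB-231 and the 3 untreated HCC38 libraries, 6 of the 12 libraries of the series, chosen by their labels. The other 6 libraries were the same lines given interferon-β at 400 IU/mL for 48 h. Their levels are read only beside the untreated values. All 12 libraries nevertheless entered the fit behind the tests, so the treated ones helped set the genes tested and the p-values. MDA-MB-231 was grown in low-glucose DMEM and HCC38 in RPMI-1640, each with fetal calf serum and penicillin/streptomycin, and the effects of line and of medium cannot be told apart. No genotype or transgene distinguished the groups, and each line stands for a single patient's tumour. Replicates are called biological in the labels, which name no separate cultures. The p-values here therefore measure only how far the 12 libraries spread within their groups, and that spread may in part be technical.

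Triple-negative tumours lack the oestrogen and progesterone receptors and amplification of the receptor HER2, and their cells range from epithelial to mesenchymal in character. A cell line's character is largely set by its transcription factors, of which GRHL2 and OVOL2 maintain the epithelial state and the ZEB, SNAI and TWIST families drive the epithelial-mesenchymal transition (EMT). What such a cell shows to its surroundings depends on its surface proteins (receptors, adhesion molecules, carriers) and on what it secretes (growth factors, cytokines, matrix). MDA-MB-231 came from a pleural effusion, while HCC38 came from a primary ductal carcinoma.

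Total counts of the 6 libraries ran from 28757721 to 43588773, and 21599 to 24247 genes were detected per library. Log2 levels correlated across genes at 0.988 to 0.994 within a line and at 0.772 to 0.779 between lines, over genes that are not independent replicates. MDA-MB-231 replicate 3 stood apart from the other two of its line: its counts differed from theirs with a chi-square per degree of freedom of 56.4 and 62.4, against 5.24 between replicates 1 and 2 and 4.14 to 10.6 within HCC38. Its values are therefore shown singly below for many genes, and elsewhere they are part of the mean and SD. Levels are CPM, the reads of a gene relative to its library's TMM-scaled total, as mean ± SD of 3 libraries, and single values are in the order of replicates 1, 2 and 3. FPKM, which corrects for transcript length, is used where genes are set beside each other.

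Of 18121 genes tested, 13673 (75.5%) differed between the lines at an adjusted p under 0.05 (edgeR quasi-likelihood test, Benjamini-Hochberg). Since this share is so high, a gene is called higher or lower below only where the difference exceeded 2-fold by test (edgeR's test against a log2 fold change of 1, adjusted p under 0.05), and every adjusted p of a gene is from that test. This held for 6547 genes (36.1%), of which 2801 (15.5%) were higher in MDA-MB-231 and 3746 (20.7%) in HCC38. In a fit of the 6 untreated libraries alone 17140 genes were tested and 6063 exceeded 2-fold. Log2 differences are MDA-MB-231 minus HCC38 with their SE, so negative values are higher in HCC38, and their median over all genes tested was -0.04. Without MDA-MB-231 replicate 3 the count over 2-fold was 6731, and 190 of the 191 genes named here as higher or lower kept their call. Among those with over 3 counts in each line, the fold difference then moved by over 1.5-fold in 5. Their log2 differences went from -11.26 to -13.09 for COL3A1, -8.33 to -12.31 for FAP, -9.42 to -10.50 for MMP13, -7.25 to -6.63 for RUNX3 and -11.04 to -10.35 for SERPINB5. The few MDA-MB-231 counts of CDH1 (3) and RAB25 (1) all came from replicate 3, so without it both were at 0. In a fit of the deposited FPKM (limma on log2(FPKM + 1)), which understates the change of low genes, 2847 of 15267 genes exceeded 2-fold. There the call was lost for 17 named genes, among them ZEB1, ZEB2, FOXA1, RORA, NR3C2, ETS1, ETV1, RUNX2, ITGA2, MSLN, NECTIN4, FGF5, DKK1, IL6 and FOCAD, though none changed direction. By DESeq2's Wald test against the same 2-fold threshold, ETV1, RUNX2, PTPRC, CTSD and SEMA3A lost theirs.

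Genes of 3 classes that shape a cell's identity were counted against this background. Among 322 genes in lists of transcription factors, which include the splicing regulator ESRP1, 258 were tested and 50 were higher in MDA-MB-231 and 110 in HCC38. Of 520 surface protein genes 445 were tested, with 95 higher in MDA-MB-231 and 178 in HCC38. Of 486 genes of secreted proteins 374 were tested, with 78 and 177. These shares, 62.0%, 61.3% and 68.2% against 36.1% of all genes tested, are descriptions, since the lists were chosen with earlier results of these data known. Counts of single lists below are likewise to be read beside 15.5% of all genes tested higher in MDA-MB-231 and 20.7% higher in HCC38. Many members were nevertheless on in both lines (CPM of at least 1 in every library): 131 transcription factors, 256 surface and 194 secreted protein genes.

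**Figure D1:**
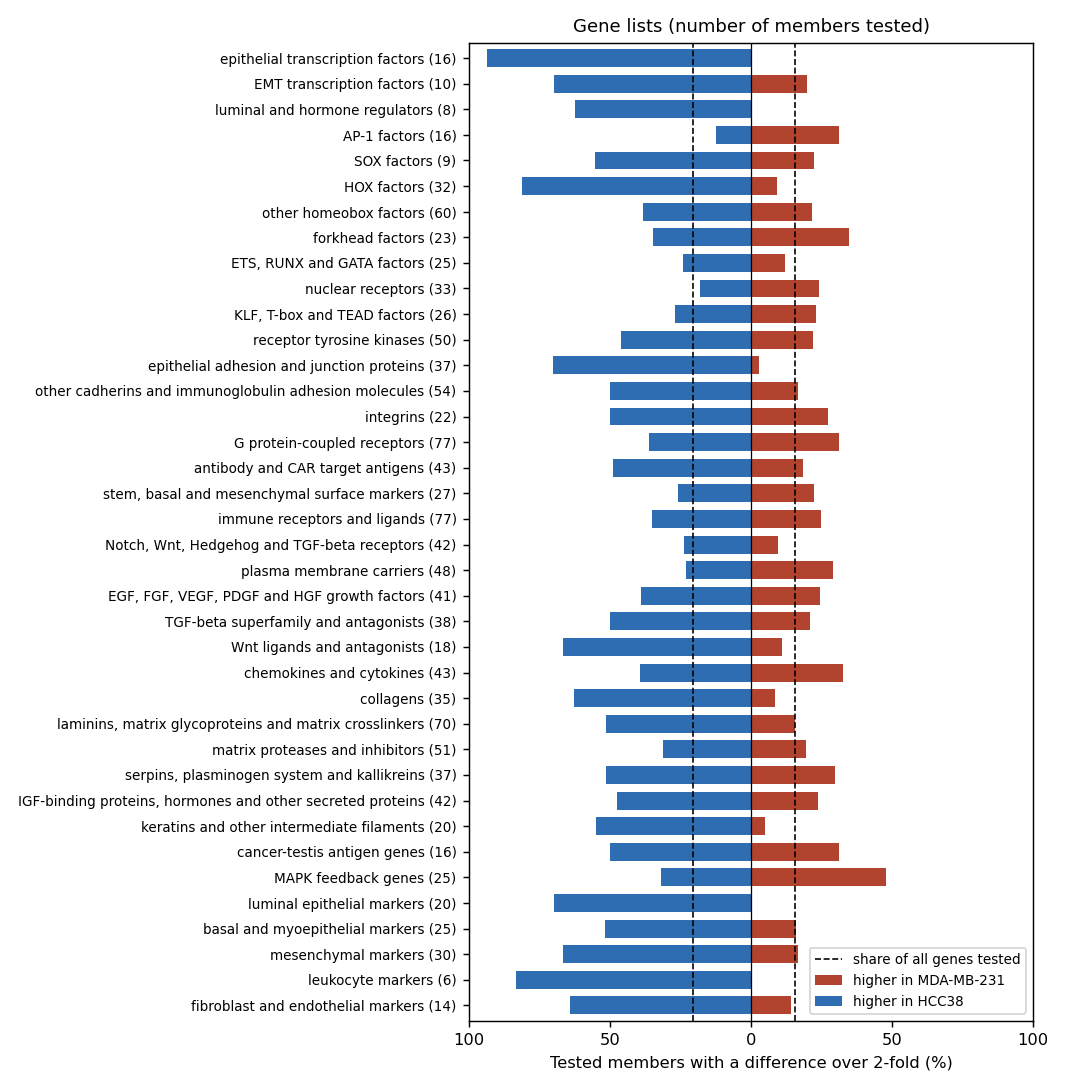
Share (%) of the tested members of each gene list with a difference over 2-fold, to the right for members higher in MDA-MB-231 and to the left for members higher in HCC38; the number of members tested follows each name and the dashed lines mark the shares of all genes tested, 15.5% and 20.7%. In the epithelial transcription factor list, which also holds the splicing regulator ESRP1, 15 of 16 tested members were higher in HCC38 and 0 in MDA-MB-231. In the MAPK feedback list 12 of 25 were higher in MDA-MB-231 and 8 in HCC38.

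The receptors that define the subtype were read first as a check of the labels. ESR1, the oestrogen receptor, had 4 counts in all 3 libraries of either line, and PGR, the progesterone receptor, had 0 in MDA-MB-231 and 2 in HCC38, so neither was tested. ERBB2, which encodes HER2, was transcribed in both lines, at 63.3 ± 0.902 CPM in MDA-MB-231 and 163 ± 6.94 in HCC38 (log2 difference -1.36 ± 0.08, adjusted p = 1.96e-04, edgeR). As a check for other cells, 5 of the 6 tested among 21 leukocyte markers were higher in HCC38, none of them above 5.00 ± 0.245 CPM on average, the level of CD14, a monocyte co-receptor, against 0.879 ± 0.577 in MDA-MB-231. PTPRC, the pan-leukocyte marker CD45, stood at 0.0180 ± 0.0159 and 0.168 ± 0.0797 CPM, and the lymphocyte genes CD3E, CD3D and MS4A1 had 0 counts in all 6 libraries. By FPKM the list went the other way, summing to 107.5 in MDA-MB-231 and 8.62 in HCC38, nearly all of the former from CD68, a lysosomal protein of macrophages and other cells (106 ± 15.5 against 2.22 ± 0.495 FPKM). CD68 had only 9 and 1 counts and was not tested, so its counts and FPKM disagree and its level is uncertain. In all, 9 of the 21 markers had 0 counts in both lines, and the part of other cells in the results was not tested.

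Epithelial transcription factors were higher in HCC38. Of 18 listed epithelial factors 14 were on in HCC38 and 4 in MDA-MB-231, and 15 of the 16 tested were higher in HCC38. GRHL2, a grainyhead factor that sustains epithelial junction genes, had 0 counts in each MDA-MB-231 library and 64.5, 60.9 and 68.4 CPM in HCC38, at least 2213-fold higher against a floor of 3 counts over the group. ESRP1, counted in this list, is the splicing regulator of epithelial isoforms and not a transcription factor. It had 2.11, 1.79 and 1.53 CPM in MDA-MB-231 and 197, 212 and 210 in HCC38 (log2 difference -6.85, adjusted p = 6.99e-15, edgeR). The lowest HCC38 library of either gene was far above the highest MDA-MB-231 library.

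TP63, the master factor of basal epithelium, stood at 0.0759 ± 0.0419 and 6.33 ± 0.937 CPM, and OVOL2, a repressor of EMT factors, had 3 counts in MDA-MB-231 and 5.26 ± 0.347 CPM in HCC38. Both were at or above 1 CPM in every HCC38 library and below it in every MDA-MB-231 library. TFAP2C, an AP-2 factor of luminal and trophoblast cells, was the best expressed member that did not pass, at 37.3 ± 6.65 and 47.6 ± 2.42 CPM.

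EMT factors were higher in HCC38 more often than in MDA-MB-231. Of 10 tested EMT factors 7 were higher in HCC38 and 2 in MDA-MB-231. The 2 were ZEB1, a repressor of epithelial genes, with 141, 138 and 136 CPM in MDA-MB-231 against 51.7, 58.0 and 57.6 in HCC38 (1.31 ± 0.08, adjusted p = 7.27e-04, edgeR), and ZEB2, its paralog, with 30.6, 27.3 and 33.2 against 9.91, 10.1 and 10.4. Both ZEB genes were on in every library of both lines, and on the log2(FPKM + 1) scale their differences were 1.05 and 0.83, not past 2-fold.

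TWIST1 and TWIST2, basic helix-loop-helix factors of mesoderm, had 0 counts in MDA-MB-231. In HCC38 TWIST1 had 14.99, 14.5 and 17.1 CPM, at least 531.3-fold higher, and TWIST2 29.4, 19.5 and 23.1, at least 822-fold higher. PRRX1, a homeobox factor of limb mesenchyme, went with them, at 0 counts and 5.80 ± 0.371 CPM. TCF4, an E protein that partners with TWIST factors, had 0.107, 0.179 and 0.0242 CPM in MDA-MB-231 and 121, 127 and 127 in HCC38, the highest FPKM of any listed transcription factor in that line. SNAI2, which encodes Slug, was on in both lines at 63.2 ± 11.04 and 33.5 ± 1.20 CPM and did not pass the 2-fold test (adjusted p = 0.825, edgeR).

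**Figure D2:**
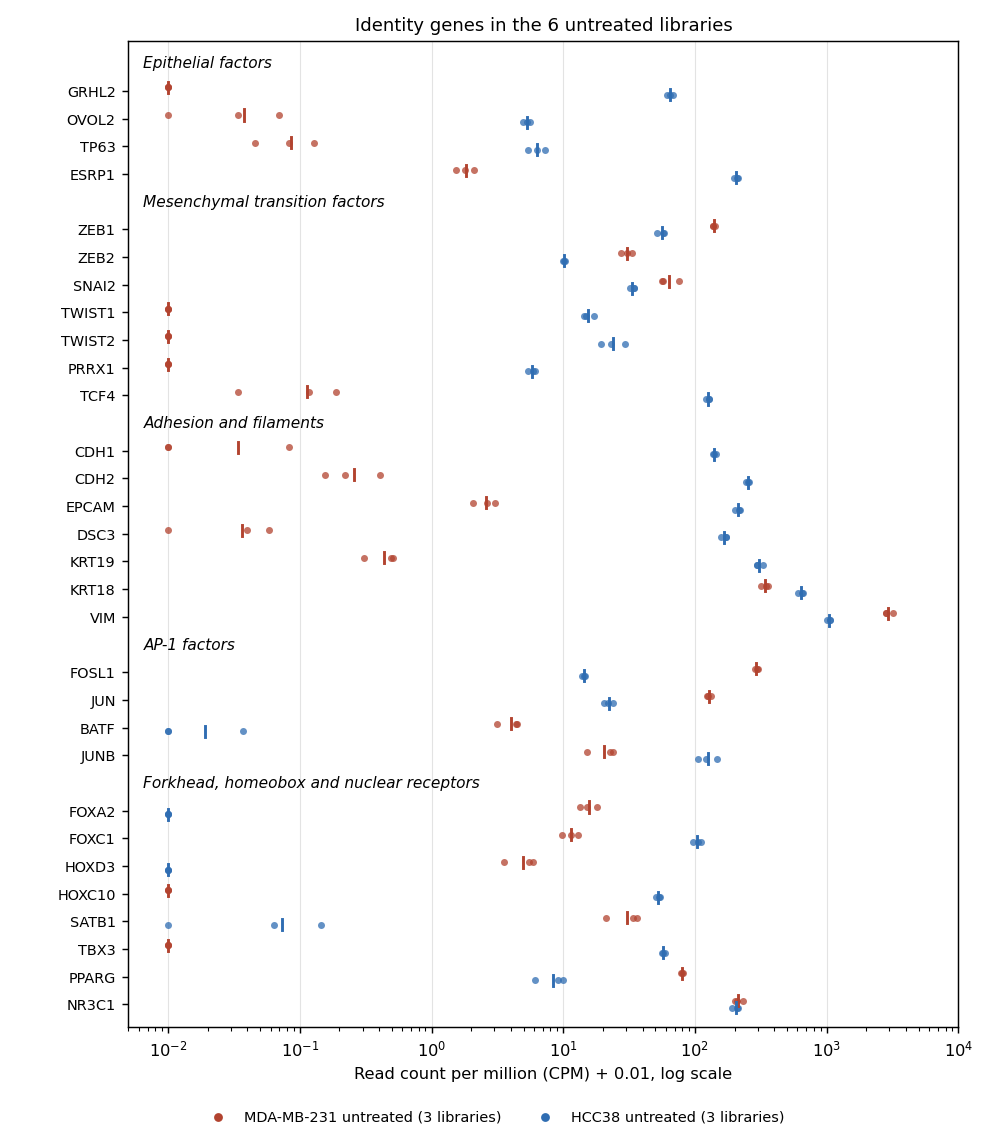
CPM + 0.01 (log axis) of identity genes in the 6 untreated libraries, grouped by kind; points are libraries, short bars are means of 3, red is MDA-MB-231 and blue HCC38. GRHL2, TWIST1, TWIST2 and PRRX1 sit at 0 counts in all 3 MDA-MB-231 libraries, while ZEB1, ZEB2, FOSL1 and VIM are higher there.

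ZEB, SNAI and TWIST proteins are known to bind the E-box CACCTG, which reads CAGGTG on the opposite strand, in promoters of epithelial genes. Promoter sequences of RefSeq (GRCh38.p14) were matched by symbol to 33 of the 59 genes in the lists of epithelial factors and of adhesion and junction proteins, too few for a comparison of shares. CDH1, GRHL2, OVOL2 and ESRP1 were among the genes without a match. The 250 bases before the start held this E-box on either strand in 12 of the 33, and in 17.5% of 27305 promoters in the table. These shares were not compared. Of the 12, 8 were higher in HCC38, 3 did not pass the 2-fold test and 1 was not tested. Of the 21 without it, 17 were higher in HCC38, CLDN4 and CLDN12 did not pass and TFAP2B and CLDN6 were not tested. A match describes the letters only, since binding was not measured. The 4 promoters below, chosen after their values were seen, are shown because they hold the motif (in capitals) beside unlike expression, and because CRB3 had the most copies, 5. CRB3 (chr19:6464021-6464270, plus strand) encodes a Crumbs protein of apical polarity, RAB25 (chr1:156060910-156061159, plus strand) an epithelial recycling GTPase, ELF3 (chr1:202010337-202010586, plus strand) an epithelial ETS factor and OCLN (chr5:69492297-69492546, plus strand) the tight junction protein occludin.
CRB3: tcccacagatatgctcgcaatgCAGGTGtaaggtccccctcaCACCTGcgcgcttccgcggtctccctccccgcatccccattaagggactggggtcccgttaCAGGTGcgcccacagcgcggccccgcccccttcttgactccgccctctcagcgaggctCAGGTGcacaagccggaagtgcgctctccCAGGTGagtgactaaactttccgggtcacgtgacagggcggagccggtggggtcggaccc
RAB25: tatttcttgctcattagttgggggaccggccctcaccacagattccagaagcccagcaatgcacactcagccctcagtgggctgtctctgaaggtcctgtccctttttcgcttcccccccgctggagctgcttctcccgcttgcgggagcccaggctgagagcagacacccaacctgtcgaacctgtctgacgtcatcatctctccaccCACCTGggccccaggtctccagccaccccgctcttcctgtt
ELF3: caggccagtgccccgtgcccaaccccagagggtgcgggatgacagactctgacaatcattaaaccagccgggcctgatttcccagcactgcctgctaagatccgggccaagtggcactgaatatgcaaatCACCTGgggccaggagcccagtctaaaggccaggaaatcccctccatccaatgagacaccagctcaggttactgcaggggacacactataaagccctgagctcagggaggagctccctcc
OCLN: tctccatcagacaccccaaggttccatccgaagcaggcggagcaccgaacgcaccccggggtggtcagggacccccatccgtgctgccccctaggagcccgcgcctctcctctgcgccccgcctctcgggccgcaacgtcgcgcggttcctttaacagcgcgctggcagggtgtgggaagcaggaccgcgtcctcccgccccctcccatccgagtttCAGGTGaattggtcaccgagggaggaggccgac

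CRB3 had 0.464, 0.537 and 0.218 CPM in MDA-MB-231 and 3.79, 5.47 and 4.99 in HCC38 (adjusted p = 2.88e-06, edgeR). RAB25 had 1 count in MDA-MB-231 and 32.6, 28.2 and 34.5 CPM in HCC38. ELF3 had 1.18, 0.924 and 0.339 CPM in MDA-MB-231 and 21.3, 18.1 and 19.5 in HCC38 (adjusted p = 2.05e-06, edgeR). All 3 were higher in HCC38 by the 2-fold test. OCLN, with the same E-box, had 20.4, 21.9 and 19.6 CPM in MDA-MB-231 and 13.97, 13.1 and 14.6 in HCC38, so MDA-MB-231 was higher in every library, but the log2 difference of 0.57 ± 0.12 did not pass the 2-fold test.

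AP-1 factors bind DNA as dimers of FOS, JUN and related proteins downstream of mitogen signalling. Of 16 tested, 5 were higher in MDA-MB-231 and 2 in HCC38, a share past 2-fold of 43.75% beside 36.1% of all genes tested. FOSL1, which encodes FRA1 and is a target of ERK signalling, had 295, 286 and 299 CPM in MDA-MB-231 and 14.7, 13.8 and 14.4 in HCC38 (4.36 ± 0.09, adjusted p = 3.03e-14, edgeR), and its 208 ± 11.1 FPKM were the most of any listed transcription factor in MDA-MB-231. JUN followed at 127 ± 4.09 against 22.1 ± 1.79 CPM (2.52 ± 0.11). JUNB, another JUN family member, went the other way and was higher in HCC38 at 20.5 ± 4.78 against 125 ± 21.1 CPM (-2.61 ± 0.24, adjusted p = 4.05e-06, edgeR). The small MAF factor MAFF was higher in MDA-MB-231 (62.2 ± 16.6 against 3.99 ± 0.311 CPM). FOSL2 was on in both at 227 ± 24.8 and 129 ± 2.15 CPM without passing the 2-fold test.

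HOX genes are the clustered homeobox factors of position along the body axis. Of 32 tested, 26 were higher in HCC38 and 3 in MDA-MB-231, with a median log2 difference of -6.27, or -4.85 with genes at 0 counts set to their bound. HOXC10 had 0 counts in MDA-MB-231 and 54.7, 50.6 and 53.1 CPM in HCC38, at least 1810-fold higher. Its neighbours HOXC11, HOXC12 and HOXC13 had 0, 1 and 1 counts in MDA-MB-231 and 12.9 ± 1.27, 50.1 ± 5.89 and 26.3 ± 0.752 CPM in HCC38. HOXB13, a factor of prostate and hindgut, had 0 counts against 20.9 ± 1.68 CPM. HOXD3 and HOXD4 went the other way: HOXD3 had 5.50, 5.84 and 3.52 CPM in MDA-MB-231 and 0 counts in HCC38, at least 163.6-fold higher, and HOXD4 4.14 ± 0.286 CPM against 1 count. HAGLR, a non-coding transcript beside HOXD3, had 20.9 ± 3.06 CPM against 0 counts, and its strand assignment in the counting is not known. HOXB9 was shared, at 39.5 ± 2.96 and 37.8 ± 2.67 CPM.

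Other homeobox genes divided more evenly, with 13 of 60 tested higher in MDA-MB-231 and 23 in HCC38. MDA-MB-231 had the chromatin organiser SATB1 (30.4 ± 8.17 against 0.0632 ± 0.0683). It also had PAX8, a factor of thyroid and kidney, at 6.42 ± 0.886 against 0.102 ± 0.0718 CPM. HCC38 had ALX4, a factor of skull mesenchyme (3 counts in MDA-MB-231 and 63.2 ± 2.34 CPM), and 2 genes at 0 counts in MDA-MB-231, BARX1 (48.0 ± 4.33 CPM) and EN1 (42.8 ± 4.49 CPM), patterning factors of stomach and hindbrain.

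Forkhead factors differed in both directions, with 8 of 23 tested higher in each line. FOXA2, a pioneer factor of endoderm, had 18.2, 15.3 and 13.5 CPM in MDA-MB-231 and 0 counts in HCC38, at least 516.6-fold higher, and FOXP2 8.47 ± 1.03 CPM against 0 counts. FOXQ1, an inducer of EMT in epithelial cells, was higher in MDA-MB-231 at 11.3 ± 1.82 against 0.532 ± 0.0917 CPM. FOXC1, a marker of basal-like breast cancer, was higher in HCC38, with 9.75, 11.5 and 12.8 against 106, 97.0 and 111 CPM (-3.19 ± 0.11, adjusted p = 4.04e-11, edgeR). FOXM1, the factor of late cell cycle genes, did not pass in either direction: 198, 198 and 308 CPM in MDA-MB-231, where replicate 3 was highest, and 183, 176 and 170 in HCC38.

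Luminal regulators past the 2-fold test leaned toward HCC38, with 5 of 8 tested higher there and 0 in MDA-MB-231. GATA3, the leading luminal factor of the breast, stood at 3.31 ± 0.318 and 53.1 ± 3.81 CPM (-3.99 ± 0.11), and FOXA1, the pioneer factor of oestrogen receptor sites, at 1.69 ± 0.0273 and 5.18 ± 0.929. TBX3, a T-box repressor of mammary development, had 0 counts in MDA-MB-231 and 59.0, 56.8 and 56.1 CPM in HCC38, at least 1965-fold higher. XBP1 and ESRRA, of the same list, leaned toward MDA-MB-231 without passing the 2-fold test. Mean levels in MDA-MB-231 and HCC38 were 84.09 and 56.96 CPM for XBP1 (0.56 ± 0.12). For ESRRA they were 49.31 and 23.15 CPM (1.09 ± 0.16). Of 9 tested SOX factors 2, both under 1 CPM on average, were higher in MDA-MB-231 and 5 in HCC38, among them SOX4, a factor of progenitor cells, at 12.2 ± 2.76 against 306 ± 14.1 CPM. SOX10, a neural crest and basal-like marker, had 0 counts in MDA-MB-231 and 25 in HCC38 and was not tested.

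Of 33 nuclear receptors tested, 8 were higher in MDA-MB-231 and 6 in HCC38. Their share past 2-fold, 42.4%, was not far from the 36.1% of all genes tested. PPARG, the receptor of fat cell differentiation, had 80.8, 78.6 and 80.4 CPM in MDA-MB-231 and 6.12, 9.05 and 10.0 in HCC38 (3.25 ± 0.14, adjusted p = 3.52e-10, edgeR). RORA, a clock-linked orphan receptor, stood at 11.8 ± 1.77 against 0.433 ± 0.0273 CPM (but 0.39 apart on the log2(FPKM + 1) scale), and NR3C2, the mineralocorticoid receptor, at 5.03 ± 0.757 against 0.0532 ± 0.0421. The glucocorticoid receptor NR3C1 was shared at 214 ± 16.4 and 204 ± 12.02 CPM. In the ETS, RUNX and GATA list 9 of 25 passed, 3 higher in MDA-MB-231 (ETS1, ETV1 and RUNX2) and 6 in HCC38. That share, 36%, was near the 36.1% of all genes tested. ETS1 stood at 315 ± 26.6 against 136 ± 2.47 CPM, and RUNX3 at 0.493 ± 0.387 against 71.1 ± 7.44. Among the TEAD factors, partners of the Hippo effectors YAP and TAZ, TEAD4 was higher in MDA-MB-231 (44.4 ± 2.29 against 14.03 ± 0.224 CPM) and TEAD2 in HCC38 (17.2 ± 2.11 against 79.5 ± 3.86), while TEAD1 was the most expressed in both (370 ± 67.1 and 264 ± 9.33) and did not pass.

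Genes of surface proteins come next, beginning with adhesion. Of 37 tested epithelial adhesion and junction genes 26 were higher in HCC38 and 1 in MDA-MB-231, and 36 of the list were on in HCC38 against 21 in MDA-MB-231. CDH1, which encodes E-cadherin, had 0, 0 and 0.0727 CPM in MDA-MB-231, 3 counts in all, and 139, 143 and 138 CPM in HCC38, a ratio of 4810 with a 95% counting interval of 1646 to 2.333e+04. EPCAM, an epithelial adhesion molecule, had 2.07, 2.62 and 3.03 against 202, 217 and 219 CPM (-6.35 ± 0.12, adjusted p = 1.53e-14, edgeR). The desmosomal cadherins DSC3 (3 counts against 166 ± 7.47 CPM) and DSG3 (0 counts against 52.7 ± 4.05 CPM, at least 1806-fold higher) went the same way.

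CDH2 encodes N-cadherin, a cadherin commonly used as a mark of mesenchymal cells. It had 0.393, 0.209 and 0.145 CPM in MDA-MB-231 and 243, 257 and 254 in HCC38 (-10.04 ± 0.22, adjusted p = 4.32e-14, edgeR), so HCC38 transcribed both E- and N-cadherin and MDA-MB-231 hardly either. CDH3, the P-cadherin of basal epithelium, was higher in HCC38 too, at 1.26 ± 0.616 against 186 ± 3.04 CPM, as was CDH19, a cadherin of Schwann cell precursors (0 counts against 77.0 ± 4.44 CPM). CDH4, or R-cadherin, was higher in MDA-MB-231, with 102, 106 and 82.9 CPM against 0.0923, 0.0539 and 0.136. ESAM, an endothelial junction molecule, had 70.6, 65.0 and 36.5 CPM in MDA-MB-231, lowest in replicate 3, against 0.268 ± 0.0724. In this list of cadherins and immunoglobulin adhesion molecules 9 of 54 tested were higher in MDA-MB-231 and 27 in HCC38.

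Integrins are receptors for matrix made of an α and a β chain. Of 22 tested, 6 were higher in MDA-MB-231 and 11 in HCC38. ITGB4 and ITGA6 form the laminin receptor of hemidesmosomes: ITGB4 had 738, 733 and 451 CPM in MDA-MB-231 and 54.0, 44.6 and 50.8 in HCC38 (3.69 ± 0.18, adjusted p = 1.11e-09, edgeR), and ITGA6 stood at 338 ± 51.3 and 70.5 ± 6.18. The collagen receptor chains ITGA1 (57.8 ± 6.31 against 6.86 ± 0.305 CPM) and ITGA2 (119 ± 28.1 against 37.7 ± 3.08) were also higher in MDA-MB-231. HCC38 had ITGA4, the fibronectin and VCAM1 receptor chain of leukocytes and neural crest, with 51.6, 64.3 and 62.0 CPM against 0 counts, at least 2032-fold higher. It also had ITGB6, an epithelial chain that activates TGF-β, at 159 ± 8.53 against 0.259 ± 0.194 CPM. ITGB1, the partner of most α chains, was shared at 1070 ± 70.0 and 1999 ± 118 CPM without passing the 2-fold test.

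Of 58 receptor tyrosine kinases 28 were on in both lines, and 11 of 50 tested were higher in MDA-MB-231 and 23 in HCC38. AXL, a receptor for GAS6 tied to mesenchymal character, had 1070, 1068 and 1151 CPM in MDA-MB-231 and 171, 162 and 176 in HCC38 (2.69 ± 0.08, adjusted p = 1.33e-11, edgeR). MET, the receptor for hepatocyte growth factor, had 150, 147 and 201 against 28.8, 31.9 and 34.7 CPM. The Wnt5a receptor ROR1 stood at 31.7 ± 3.50 against 3.31 ± 0.186 CPM.

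DDR2, a collagen receptor of mesenchymal cells, had 5.71, 5.49 and 4.39 CPM in MDA-MB-231 and 422, 469 and 444 in HCC38 (-6.43 ± 0.16, adjusted p = 1.53e-13, edgeR). FGFR2, a receptor for fibroblast growth factors, had 1 count in MDA-MB-231 and 35.1 ± 3.59 CPM in HCC38. EPHB6, a kinase-dead ephrin receptor, and FLT4, the lymphatic VEGF receptor, had 0 counts in MDA-MB-231 and 13.2 ± 1.68 and 7.22 ± 0.480 CPM in HCC38. EGFR, common in triple-negative tumours, was on in both at 343 ± 24.9 and 171 ± 7.75 CPM (1.00 ± 0.08) and did not pass the 2-fold test, nor did FGFR1 (176 ± 10.8 and 279 ± 10.1) or EPHA2 (260 ± 32.0 and 131 ± 10.6).

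CD44 and CD24 are surface markers by which breast cancer cells are often sorted. CD44, the hyaluronan receptor, had 911, 942 and 1160 CPM in MDA-MB-231 and 278, 294 and 304 in HCC38 (1.78 ± 0.11, adjusted p = 1.81e-06, edgeR). CD24, a mucin-like anchor protein, had 28.4, 30.5 and 64.1 against 268, 308 and 308 CPM (-2.84 ± 0.25, adjusted p = 2.25e-06, edgeR), and its highest MDA-MB-231 library was replicate 3. NT5E, which encodes the adenosine-producing enzyme CD73, had 635, 605 and 505 against 4.25, 4.18 and 4.85 CPM (7.04 ± 0.14). HCC38 instead had MME, the peptidase CD10 of myoepithelial cells (0.164 ± 0.114 against 242 ± 20.9 CPM), and CD109, a TGF-β co-receptor (0.163 ± 0.0840 against 208 ± 13.8). In the list of stem, basal and mesenchymal surface markers 6 of 27 tested were higher in MDA-MB-231 and 7 in HCC38. Their share past 2-fold was 48.15%, beside 36.1% of all genes tested.

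Immune receptors and ligands differed in 46 of 77 tested, 19 higher in MDA-MB-231 and 27 in HCC38. CD40, a costimulatory receptor of antigen-presenting cells, had 35.3, 36.3 and 26.1 CPM in MDA-MB-231 and 1 count in HCC38, a ratio of 3163 with a 95% counting interval of 567.3 to 1.25e+05. TLR4, the lipopolysaccharide receptor, stood at 35.1 ± 3.69 against 0.731 ± 0.194 CPM, and ULBP2, a ligand of the natural killer receptor NKG2D, at 14.6 ± 1.01 against 0.598 ± 0.0714. HCC38 had the death ligand TNFSF10, or TRAIL (8.84 ± 0.924 CPM), and IL17RB, an interleukin-17 receptor chain (8.23 ± 0.160 CPM), both at 0 counts in MDA-MB-231. CD274, which encodes PD-L1, had 11.5, 9.30 and 18.9 CPM in MDA-MB-231 and 20.5, 23.2 and 20.01 in HCC38 and did not pass the 2-fold test.

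Of 46 receptors and ligands of Notch, Wnt, Hedgehog and TGF-β signalling 31 were on in both lines, and 4 of 42 tested were higher in MDA-MB-231 and 10 in HCC38. Their share past 2-fold, 33.3%, was near the 36.1% of all genes tested. NOTCH3 had 0.7501, 0.507 and 0.315 CPM in MDA-MB-231 and 508, 429 and 442 in HCC38 (-9.83 ± 0.19, adjusted p = 1.48e-14, edgeR), and its ligand gene JAG1 stood at 41.0 ± 9.53 and 120 ± 4.79. NOTCH2 did not pass the test, at 589 ± 25.5 and 556 ± 20.7 CPM. SMO, the Hedgehog signal transducer, had 0 counts in MDA-MB-231 and 51.4, 46.4 and 48.9 CPM in HCC38, at least 1675-fold higher. Higher in MDA-MB-231 were TGFBR3, the co-receptor betaglycan (66.7, 67.1 and 30.2 CPM against 4.84 ± 0.393), and LGR4, the R-spondin receptor (88.3 ± 11.9 against 25.7 ± 1.00).

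Of 77 G protein-coupled receptors tested 24 were higher in MDA-MB-231 and 28 in HCC38. HTR7, a serotonin receptor, stood at 14.1 ± 1.81 against 0.673 ± 0.0950 CPM and F2R, the thrombin receptor, at 31.5 ± 4.81 against 3.93 ± 0.193. Plasma membrane carriers had 14 of 48 tested higher in MDA-MB-231 and 11 in HCC38. SLC2A3, the high-affinity glucose carrier GLUT3, had 122, 122 and 66.3 CPM in MDA-MB-231 and 0.40, 0.458 and 0.780 in HCC38. SLC14A1, a urea carrier, stood at 37.7 ± 1.59 against 0.134 ± 0.0322 CPM. SLC16A1, the lactate carrier MCT1, was higher in HCC38, with 4.39, 2.98 and 1.04 CPM against 369, 423 and 417 (-7.23 ± 0.35, adjusted p = 2.08e-10, edgeR). The media of the lines differ in glucose, and its part in these values was not tested.

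Among targets of antibodies and engineered T cells 8 of 43 tested were higher in MDA-MB-231 and 21 in HCC38. PSCA, a small anchored antigen, and MSLN, or mesothelin, had 6.92 ± 1.74 and 2.86 ± 0.546 CPM in MDA-MB-231 and 0.0306 ± 0.00349 and 0.0895 ± 0.0604 in HCC38. CA9, a hypoxia-induced carbonic anhydrase, stood at 10.2 ± 1.02 against 0.547 ± 0.346 CPM. NECTIN4, an adhesion molecule, was higher in HCC38, at 4.12 ± 0.542 CPM against 4 counts.

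**Figure D3:**
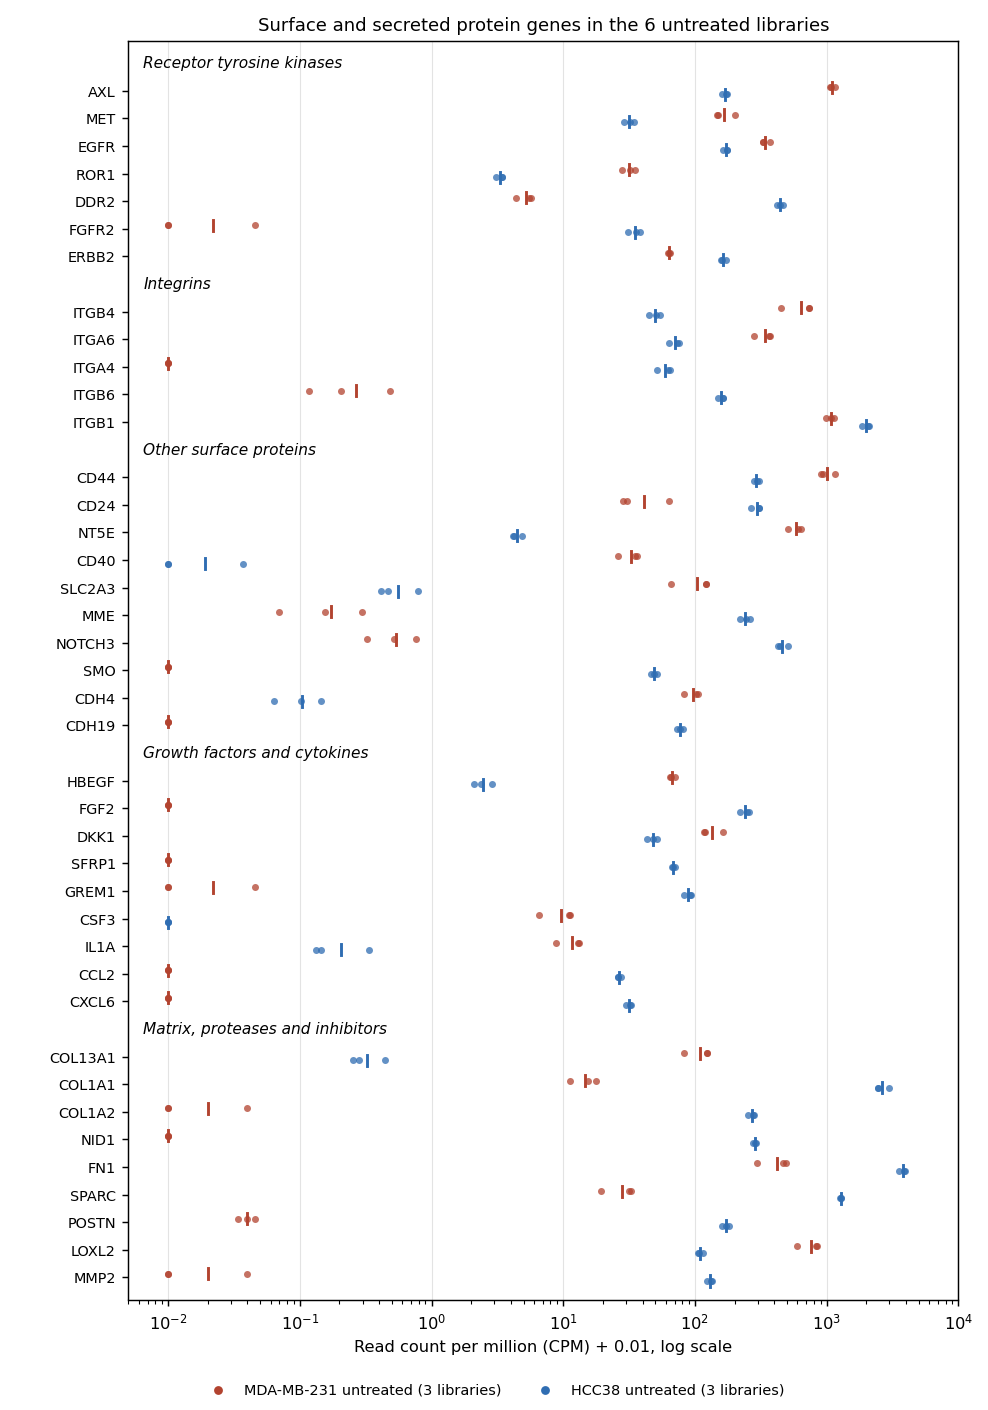
CPM + 0.01 (log axis) of surface and secreted protein genes in the 6 untreated libraries, grouped by kind; points are libraries, short bars are means of 3, red is MDA-MB-231 and blue HCC38. FGF2, NID1, SMO, CDH19, ITGA4, CCL2, CXCL6 and SFRP1 sit at 0 counts in every MDA-MB-231 library, and CSF3 in every HCC38 library.

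Of the genes of secreted proteins, growth factors are given first. In the list of EGF, FGF, VEGF, PDGF and HGF family factors 10 of 41 tested were higher in MDA-MB-231 and 16 in HCC38. HBEGF, an EGFR ligand, had 70.2, 65.9 and 65.1 CPM in MDA-MB-231 and 2.86, 2.08 and 2.37 in HCC38 (4.78 ± 0.13, adjusted p = 7.13e-13, edgeR). FGF5, an oncogenic fibroblast growth factor, stood at 5.74 ± 0.467 against 0.227 ± 0.129 CPM and BDNF, a neurotrophin, at 39.6 ± 10.4 against 5.14 ± 0.486. FGF2, basic fibroblast growth factor, had 0 counts in MDA-MB-231 and 219, 255 and 248 CPM in HCC38, at least 8252-fold higher. Of the FGF receptor genes given above, FGFR2 was on only in HCC38, while FGFR1 was on in both lines. VEGFA, the main angiogenic factor, was shared at 71.9 ± 15.8 and 112 ± 2.31 CPM.

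Wnt and BMP signals are shaped by secreted ligands and antagonists. Of 18 Wnt ligands and antagonists tested 12 were higher in HCC38 and 2 in MDA-MB-231, WNT7B (46.7 ± 6.16 against 9.44 ± 1.21 CPM) and DKK1, a blocker of the Wnt co-receptor LRP6 (117, 120 and 164 against 43.6, 48.0 and 51.8). SFRP1, a soluble Wnt decoy, had 0 counts in MDA-MB-231 and 66.6, 70.4 and 68.7 CPM in HCC38, at least 2349-fold higher, and RSPO4, a Wnt-enhancing R-spondin, 0 counts and 43.5 ± 4.21 CPM. In the TGF-β superfamily list 8 of 38 tested were higher in MDA-MB-231 and 19 in HCC38. GREM1, a BMP antagonist of stromal cells, had 1 count against 89.2 ± 6.22 CPM. The BMP antagonists of MDA-MB-231 were NOG (5.97 ± 0.409 against 0.121 ± 0.0248 CPM) and CHRDL1 (5.87 ± 0.666 against 0.0919 ± 0.0541).

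Of 43 chemokine and cytokine genes tested 14 were higher in MDA-MB-231 and 17 in HCC38. MDA-MB-231 had CSF3, granulocyte colony-stimulating factor, with 11.1, 11.3 and 6.50 CPM against 0 counts, at least 317.9-fold higher. It also had the interleukin-1 genes IL1A (13.2, 12.9 and 8.82 CPM against 0.194 ± 0.112) and IL1B (5.22 ± 0.880 against 0.0808 ± 0.117). IL6 was on in both lines and higher in MDA-MB-231, at 7.31 ± 0.156 against 2.37 ± 0.167 CPM (1.63 ± 0.17, adjusted p = 7.00e-04, edgeR). HCC38 had chemokines: CCL2, which attracts monocytes, with 26.0, 25.9 and 27.6 CPM against 0 counts, at least 908.8-fold higher, CCL7 beside it on chromosome 17 (10.4 ± 0.808 CPM against 0 counts), the neutrophil chemokine CXCL6 (31.6 ± 1.35 against 0 counts) and CXCL12 (9.06 ± 0.304 against 0 counts). CXCL8, interleukin-8, was on in both at 12.5 ± 2.77 and 8.11 ± 0.584 CPM and did not pass.

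Most tested genes of the extracellular matrix that passed were higher in HCC38. Of 35 tested collagen genes 22 were higher there and 3 in MDA-MB-231, and of 70 tested laminins, matrix glycoproteins and crosslinkers 36 and 11. COL1A1, a chain of fibrillar collagen I, had 17.7, 15.3 and 11.2 CPM in MDA-MB-231 and 2959, 2475 and 2443 in HCC38 (-7.48 ± 0.19, adjusted p = 2.06e-13, edgeR). COL1A2, its partner chain, had 1 count in MDA-MB-231 and 280, 274 and 255 CPM in HCC38. The fibrillar genes COL3A1 (7 counts against 176 ± 7.49 CPM) and COL5A2 (3.22 ± 0.797 against 962 ± 11.2) went with them.

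FN1, fibronectin, was on in both lines and higher in HCC38, with 489, 469 and 297 CPM in MDA-MB-231 and 3571, 3875 and 3914 in HCC38 (-3.18 ± 0.22, adjusted p = 9.93e-08, edgeR). SPARC, a collagen-binding glycoprotein, had 32.4, 31.8 and 19.3 against 1280, 1266 and 1288 CPM. NID1, nidogen of basement membranes, had 0 counts in MDA-MB-231 and 291, 284 and 276 CPM in HCC38, at least 9716-fold higher. POSTN, periostin of tumour stroma, and BGN, a small proteoglycan, had 3 and 2 counts in MDA-MB-231 against 171 ± 9.43 and 190 ± 14.9 CPM. MDA-MB-231 replicate 3 was the lowest of its line for COL1A1, FN1 and SPARC, in each case far below HCC38.

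Some matrix genes were higher in MDA-MB-231. COL13A1, a transmembrane collagen, had 123, 124 and 82.2 CPM there and 0.431, 0.242 and 0.271 in HCC38 (8.43 ± 0.26, adjusted p = 2.24e-12, edgeR). LOXL2, a collagen crosslinking oxidase, had 846, 833 and 592 against 115, 107 and 105 CPM, and the matricellular gene CCN3 stood at 28.1 ± 2.57 against 0.240 ± 0.0761. The basement membrane gene COL4A2 was shared at 564 ± 66.7 and 492 ± 19.0 CPM.

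Proteases and their inhibitors remodel this matrix. Of 51 matrix proteases and inhibitors tested 10 were higher in MDA-MB-231 and 16 in HCC38. MMP2, gelatinase A, had 1 count in MDA-MB-231 and 131 ± 5.79 CPM in HCC38, and MMP7, matrilysin, 0 counts and 31.2 ± 2.28 CPM. ADAMTS9, an aggrecanase, was higher in MDA-MB-231 at 27.5 ± 6.50 against 2.12 ± 0.265 CPM. Among serpins, plasminogen system and kallikreins 11 of 37 were higher in MDA-MB-231 and 19 in HCC38. The kallikrein KLK5, a skin protease, had 0 counts in MDA-MB-231 and 74.0, 67.6 and 69.6 CPM in HCC38, and SERPINB5, or maspin, 4 counts against 90.1 ± 3.80 CPM.

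The insulin-like growth factor binding proteins divided by member. IGFBP5 had 0.50, 0.119 and 0.267 CPM in MDA-MB-231 and 481, 479 and 464 in HCC38 (-10.69 ± 0.32, adjusted p = 1.03e-12, edgeR). IGFBP7 was higher in MDA-MB-231 at 146 ± 2.25 against 23.9 ± 1.29 CPM, and IGFBP1 had 21.3 ± 0.0501 CPM there against 3 counts. LGALS3BP, a secreted galectin ligand, was higher in MDA-MB-231 as well, at 437 ± 79.8 against 107 ± 4.08 CPM. In that list of binding proteins, hormones and other secreted proteins 10 of 42 tested were higher in MDA-MB-231 and 20 in HCC38.

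Keratins and vimentin are the filament proteins by which epithelial and mesenchymal cells are told apart. The simple epithelial keratins KRT8 (443 ± 21.1 and 955 ± 51.4 CPM) and KRT18 (339 ± 20.4 and 638 ± 30.6) were on in both lines and did not pass the 2-fold test, though KRT8 passed with scaling by library totals (-1.17, adjusted p = 0.0231, edgeR) or by DESeq2 size factors (adjusted p = 0.0457, edgeR). KRT19, the keratin of ductal cells, had 0.50, 0.298 and 0.485 CPM in MDA-MB-231 and 329, 298 and 296 in HCC38 (-9.48 ± 0.18, adjusted p = 1.36e-14, edgeR), and KRT5, a basal keratin, 1 count and 22.7 ± 2.05 CPM. KRT14, its usual partner, had 2 counts in MDA-MB-231 and 14 in HCC38 and was not tested. VIM, vimentin of mesenchymal cells, had 2815, 2816 and 3200 CPM in MDA-MB-231 and 1057, 1014 and 1067 in HCC38 (1.49 ± 0.09, adjusted p = 2.98e-05, edgeR), and was the 1 gene of 20 tested in this list that was higher in MDA-MB-231, against 11 higher in HCC38.

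Lists of cell type markers were read in the same way. Of luminal epithelial markers 14 of 20 tested were higher in HCC38 and 0 in MDA-MB-231, and of basal and myoepithelial markers 13 and 4 of 25. Of mesenchymal markers 20 of 30 tested were higher in HCC38 and 5 in MDA-MB-231, the latter being AXL, VIM, NT5E, ZEB1 and ZEB2. Fibroblast and endothelial markers, many of them matrix genes also counted as mesenchymal, had 9 of 14 higher in HCC38 and 2 in MDA-MB-231, of which ESAM is given above. The fibroblast protease FAP stood at 0.0485 ± 0.0840 and 19.9 ± 0.643 CPM, while PDGFRB, the mural cell receptor, stood at 6.88 ± 2.60 and 5.62 ± 0.660 and did not pass. In bulk libraries fewer cells with a transcript and less transcript per cell cannot be told apart, so whether one cell of HCC38 held both epithelial and mesenchymal transcripts was not tested.

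Genes that feed back on MAPK signalling include phosphatases and Sprouty inhibitors that ERK activity induces. Of 25 tested 12 were higher in MDA-MB-231 and 8 in HCC38, with a median log2 difference of 1.20 against -0.04 over all genes tested. DUSP5, a nuclear ERK phosphatase, had 66.9, 64.7 and 55.8 CPM in MDA-MB-231 and 4.46, 4.99 and 4.27 in HCC38 (3.77 ± 0.11, adjusted p = 2.61e-12, edgeR). SPRY2, a Sprouty inhibitor of receptor signalling, stood at 67.8 ± 1.78 against 8.80 ± 0.999 CPM. DUSP6, a cytoplasmic ERK phosphatase, had 67.5, 65.4 and 29.96 against 8.15, 9.30 and 8.58 CPM, lower in MDA-MB-231 replicate 3 than in replicates 1 and 2 but above every HCC38 library. EGR1, an immediate early factor, was higher in HCC38 at 2.81 ± 0.730 against 29.8 ± 2.09 CPM, and MYC (106 ± 19.6 and 55.7 ± 2.74) and CCND1 (297 ± 20.9 and 417 ± 1.48) did not pass the 2-fold test.

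A stricter reading asked which genes were on in one line only: at least 1 CPM in each of its 3 libraries and under 0.1 CPM in each of the other 3. HCC38 had 789 such genes (4.35% of all genes tested) and MDA-MB-231 236 (1.3%), of which 584 and 156 were protein coding. In the other line 482 of the 789 and 106 of the 236 had 0 counts in all 3 libraries. Of the 258 listed transcription factor genes tested 10 were on only in MDA-MB-231 and 37 on only in HCC38. These counts were 9 and 39 of 445 surface protein genes, and 9 and 53 of 374 secreted protein genes. They stand beside the 1.3% and 4.35% of all genes tested, and describe lists chosen with earlier results known. By contrast 11812 genes were on in both lines, and 9231 of these did not exceed 2-fold by test.

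Genes on only in MDA-MB-231 included MAGEB2, a cancer-testis antigen, with 106, 111 and 105 CPM against 0 counts, at least 3544-fold higher. ROBO1, the Slit receptor, had 84.9, 80.2 and 87.2 CPM against 1 count. Also on only there were GPAT2, a testis acyltransferase (91.4 ± 5.79 CPM against 2 counts), SLC17A9, the vesicular ATP carrier (40.5 ± 5.53 against 0 counts), and RSPH3, a radial spoke protein (15.01 ± 3.68 against 0 counts). KISS1, a metastasis suppressor gene, stood at 11.6 ± 0.697 CPM against 0 counts. CYTH4, an exchange factor of blood cells, had 63.1, 58.5 and 17.4 CPM, lowest in replicate 3, against 2 counts in HCC38.

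On only in HCC38 were SLC12A7, a potassium-chloride carrier, with 193, 159 and 153 CPM against 0 counts, at least 5757-fold higher, and SULF2, a heparan sulfate sulfatase, with 152, 140 and 135 CPM, at least 4886-fold higher. VANGL2, a planar polarity protein, had 104, 102 and 100 CPM against 0 counts. MYH14, a non-muscle myosin (112 ± 10.3 CPM), and STEAP4, a metalloreductase (86.9 ± 6.94), also had 0 counts in MDA-MB-231. UCHL1, a neuronal deubiquitinase, had 1 count against 302 ± 8.54 CPM. PHGDH, the first enzyme of serine synthesis, had 3 counts in MDA-MB-231 and 238, 210 and 221 CPM in HCC38. Among cancer-testis antigens PRAME had 0 counts against 58.5 ± 1.03 CPM and HORMAD1 0 counts against 29.4 ± 3.03, and in the other direction stood MAGEB2 and MAGEA3 (14.95 ± 1.502 CPM against 0 counts). Of 16 tested antigens of this kind 5 were higher in MDA-MB-231 and 8 in HCC38. MAGEA3 has close copies, so its counts are uncertain.

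The interferon-treated libraries of the same lines, which the rule did not use, gave a second reading. Of the 236 genes on only in MDA-MB-231, 177 (75.0%) met the same rule in the treated libraries, and of the 789 on only in HCC38, 619 (78.5%). No gene of the 236 reached 1 CPM in every treated HCC38 library. Of the 789, 1 did so in treated MDA-MB-231: MMP13, collagenase 3, with 0.0357, 0 and 0.0727 CPM in untreated and 3.68 CPM on average in treated MDA-MB-231. The same rule on the deposited FPKM (at least 1 and under 0.1) kept 129 of the 236 and 520 of the 789.

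**Figure D4:**
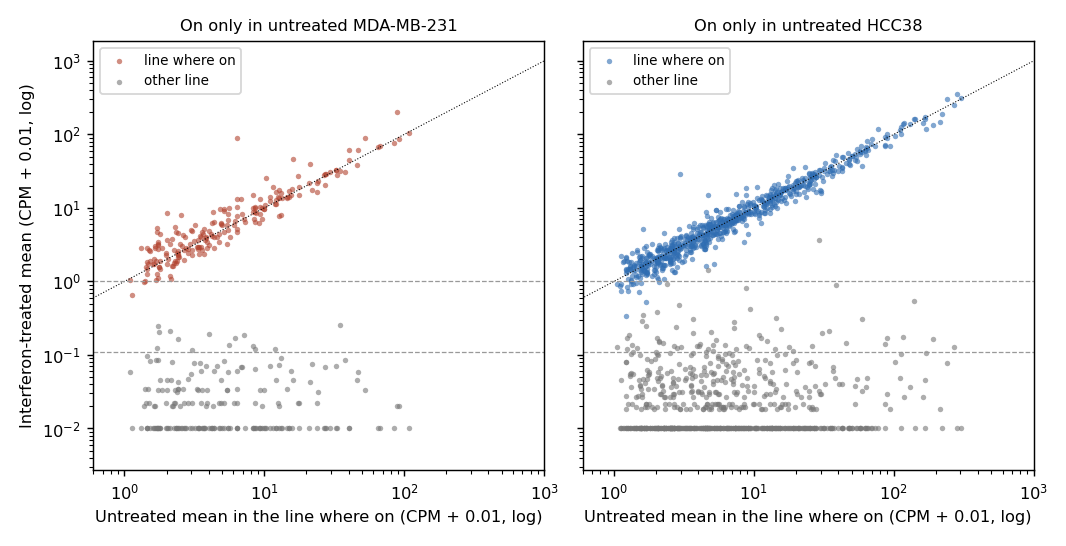
Genes on only in untreated MDA-MB-231 (left) and only in untreated HCC38 (right): mean CPM + 0.01 in the untreated libraries of the line where the gene was on (horizontal, log) against the mean in interferon-treated libraries (vertical, log), coloured for that line and grey for the other line; dashed lines mark the levels for on and off and the dotted line equality. The coloured points follow the dotted line and the grey points stay low. Of all such genes, 177 of 236 and 619 of 789 met the same rule after treatment. Genes without a symbol, 31 of the 236 and 87 of the 789, are not plotted.

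Some genes on in one line only were neighbours in the genome. Among the 14 runs of at least 3 neighbouring genes on only in HCC38 were HOXC10 to HOXC13 on chromosome 12 (53938831 to 53990279), 6 HOXA genes on chromosome 7, the protocadherin α cluster on chromosome 5, IRX1, IRX2 and IRX4 with C5orf38 on chromosome 5, KLK5, KLK6 and KLK10 on chromosome 19, CCL2, CCL7 and CCL11 with TMEM98 on chromosome 17, and a histone cluster on chromosome 6. Reads of protocadherins and histones can be shared between near-identical copies, so those runs are uncertain. Over whole chromosomes the median log2 difference was lowest on chromosome 18 (-0.81, 53.6% of its tested genes past 2-fold) and highest on chromosome 11 (0.35), against -0.04 over all genes.

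The short arm of chromosome 9 held a run in each line, on either side of CDKN2A, the tumour suppressor gene of p16. MDA-MB-231 had 0 counts of HACD4, KLHL9 and MTAP (chromosome 9, 20999509 to 21937651, GRCh38), where HCC38 had 18.9 ± 1.73, 50.8 ± 3.09 and 3.88 ± 0.222 CPM. KLHL9, an adaptor of a ubiquitin ligase, was at least 1739-fold higher in HCC38. MTAP, an enzyme of methionine salvage, had counts that were low beside its FPKM, so its level is uncertain.

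HCC38 had 0 counts of 6 genes farther along (25676969 to 27573866) that were on in MDA-MB-231: TUSC1, CAAP1, PLAA, IFT74, MOB3B and C9orf72. PLAA, a ubiquitin-binding protein, had 64.2, 65.1 and 73.0 CPM in MDA-MB-231, at least 2227-fold higher, and IFT74, of ciliary transport, 32.1, 30.9 and 34.4. CDKN2A, CDKN2B, DMRTA1 and ELAVL2, between the runs, had 0 counts in all 6 libraries. Most genes plotted farther out were on in both lines, for example RPS6 (478 ± 24.2 and 379 ± 21.3 CPM) on one side and ACO1 (213 ± 4.91 and 43.7 ± 0.938) on the other. FOCAD, at the edge of the MDA-MB-231 run, had 1.75, 1.52 and 1.62 against 22.6, 23.9 and 22.9 CPM. DNA was not measured in these libraries, so gene loss and silencing cannot be told apart.

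**Figure D5:**
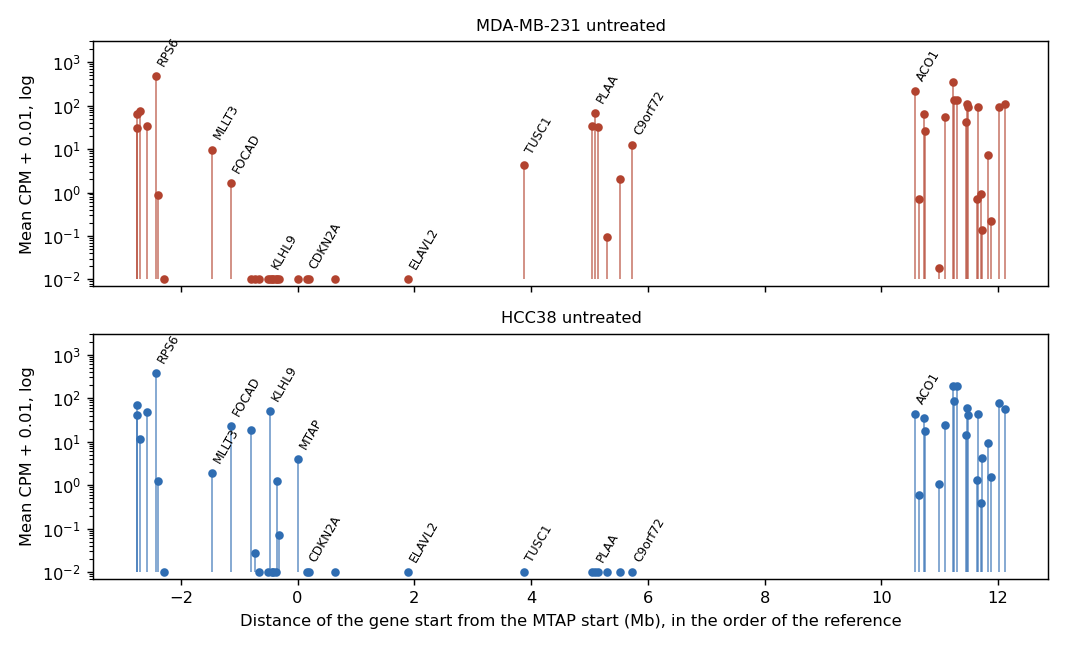
Mean CPM + 0.01 (log axis) of genes along the short arm of chromosome 9 in untreated MDA-MB-231 (top) and HCC38 (bottom), against the distance of each gene's start from that of MTAP in Mb. Points on the bottom line have 0 counts in 3 libraries: KLHL9 and its neighbours in MDA-MB-231, TUSC1 to C9orf72 in HCC38, and CDKN2A in both.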

How the data were processed

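Per the labels, strand-marking libraries (NEBNext Ultra II Directional) were made from RNeasy-purified RNA. Read counts per gene and FPKM were deposited by the authors for each library. The count values are whole numbers that the authors did not normalize, and the FPKM are the authors' estimates per length and depth. Per the submitters' processing notes, the tools included HTSeq 2.0.2, fastp 0.23.2 and Cufflinks 2.2.1, on GRCh38.p13. What the sources used here leave unstated are the aligner, the annotation release and the settings for strand and overlapping genes, so genes with close copies, antisense or overlapping partners are uncertain.

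Counts of all 12 libraries were fitted with 1 coefficient per group in edgeR 4.0.16 (limma 3.58.1, R 4.3.3), after filterByExpr (minimum count 10, total 15) and TMM scaling (factors 0.947 to 1.03). Fitted fold changes use a prior count of 0.125. The steps were tested on simulated data. Fold bounds use 3 counts over a group, and ratios with 1 to 3 counts have exact 95% intervals that cover counting error only. Positions were read over whole chromosomes, not arms. Alternatives included DESeq2 1.42.0.

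The groups, members and the 39 gene lists were chosen with earlier results of these data known. Genes were named if among the 12 largest differences per direction, the 15 genes on in one line only with most FPKM, the 5 largest per list and direction with at least 1 FPKM, the 3 best expressed shared members per list, a set of standard markers, or neighbours in a run. The 4 genes with promoters shown and those of the closing observations were chosen after their values were seen. Some genes that met the rule are not reported here.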

Additional observations from a re-analysis of the deposited data

Results flagged for a closer look

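The difference between the lines was tested for a change of size between untreated and interferon-treated libraries (edgeR quasi-likelihood interaction, adjusted over all genes tested), and it changed at an adjusted p under 0.05 for 35 of the genes named here. Each value below is the treated minus the untreated log2 difference (MDA-MB-231 minus HCC38). In 14 genes higher in untreated MDA-MB-231 the lead shrank. They included NT5E (-3.07, a lead of 7.04 untreated and 3.98 treated), COL13A1 (-2.37), HTR7 (-1.70), FOSL1 (-1.59), DKK1 (-1.51, from 1.49 untreated to -0.03 treated), ITGA2 (-1.45), FOXQ1 (-1.31), AXL (-1.22), MET (-0.92), ROR1 (-0.85) and ITGA6 (-0.79). The other 3 were SPRY2 (-0.72), VIM (-0.63) and DUSP5 (-0.56). NT5E, the gene of CD73, averaged 4.42 CPM in untreated and 33.4 CPM in treated HCC38.

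In genes higher in untreated HCC38 the lead shrank for TNFSF10 (6.67, with 0 CPM in untreated and 0.817 CPM in treated MDA-MB-231), MMP13 (6.49), VANGL2 (4.29), CDH1 (3.78), COL1A2 (3.36), BGN (3.25), COL3A1 (2.79), MDK (2.06), NOTCH3 (2.00), FOCAD (0.92) and ESRP1 (0.60). Several of these rest on few counts in MDA-MB-231, or on 0 when untreated for TNFSF10 and VANGL2, whose fitted values then depend on the prior count. CDH1 stood at 0.0242 CPM untreated and 0.527 CPM treated. The lead of HCC38 also shrank for HLA-B (1.22) and HLA-C (1.17), which have close copies, TGFBI (0.98) and KRT8 (0.45, not past 2-fold when untreated). The lead of MDA-MB-231 was larger after treatment for LGR4 (1.68), SNAI2 (1.42), IGFBP7 (0.51) and SLC2A1 (0.47), and that of HCC38 for CCND1 (-0.69) and ITGB1 (-0.60). SNAI2, CCND1 and ITGB1 had not passed the 2-fold test in the untreated libraries.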

How the results depend on the processing

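Counts of differing genes moved within 1.5 times under every alternative except 1. The count called was 13008 to 15257 under the other edgeR and DESeq2 settings, 13236 to 13853 without any single library and 10596 in the FPKM fit, and the count over 2-fold was 6392 to 6731 without any single library, 5598 with DESeq2 and 2847 in the FPKM fit. With the replicate number as a block the counts were 13643 and 6529. The numbers are shared only: same-numbered deviations correlated at 0.0541, -0.0768 and 0.00959, and not every library correlated best with its own number. The block changed no call of a named gene. Genes on only in MDA-MB-231 were 106 with 0 counts for off, 88 with at least 5 CPM for on and 246 to 272 without any single library. For HCC38 these were 482, 369 and 806 to 851. Of 191 named genes over 2-fold 186 kept their call in every alternative but the FPKM fit. CTSD (adjusted p = 0.137), ETV1 (0.110), RUNX2 (0.110), PTPRC (0.231) and SEMA3A (0.379) lost it with DESeq2, and SEMA3A also with library totals (0.0808). SEMA3A lost it too without HCC38 replicate 1 (log2 difference 1.15) or MDA-MB-231 replicate 3 (1.17), and PTPRC without HCC38 replicate 3 (-2.54) or MDA-MB-231 replicate 1 (-2.45). By FPKM SEMA3A stood much farther apart, at 384 ± 159 in MDA-MB-231 and 14.6 ± 1.56 in HCC38. Its counts and FPKM thus disagree, and the size of its difference is uncertain. Signs turned only where no setting called a difference: CD63 (-0.0315 with library totals, -0.00841 with a term for the deposited numbering of MDA-MB-231, -0.0194 with FPKM, and -0.0444 to 0.119 without any single library), HOXB9 (-0.00295 with library totals) and NR3C1 (-0.0373 with FPKM). Among genes with over 3 counts in each line, leaving out HCC38 replicate 1 raised IL1B to 8.11, CA9 to 4.86 and PAX8 to 6.65, and leaving out replicate 2 raised IL1A to 6.45. Without HCC38 replicate 3 NR3C2 stood at 7.27 and SATB1 at 9.87. Without MDA-MB-231 replicate 2 ITGB6 stood at -9.93, RUNX3 at -7.97 and TCF4 at -10.98, and without replicate 1 SERPINB5 at -14.54. The counts of list members without MDA-MB-231 replicate 3, an alternative chosen after seeing the data, moved by over 1.5 times only for luminal regulators higher in MDA-MB-231, from 0 to 1. Depth limits genes with few counts, whose fitted folds depend on the prior count.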

Other observations

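The genes with most FPKM within each class, chosen after their values were seen, show what the lines transcribe most. Among listed surface proteins SLC2A1, the glucose carrier GLUT1, came second to CD44 in MDA-MB-231 at 420 ± 42.0 FPKM against 62.9 ± 9.97 in HCC38. In HCC38 the class I antigen-presenting genes HLA-B (802 ± 50.7 FPKM against 261 ± 48.7 in MDA-MB-231) and HLA-C (524 ± 77.9 against 85.2 ± 17.1) were higher by test, with close copies that make their counts uncertain. The tetraspanin CD63 was shared, at 327 ± 46.5 and 329 ± 4.64 FPKM.

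Among secreted proteins LGALS1, or galectin-1, led in MDA-MB-231 at 3640 ± 407 FPKM and was higher there than in HCC38 (1104 ± 60.2). The proteoglycan SRGN, serglycin of secretory granules, stood at 251 ± 13.1 against 57.9 ± 4.71 FPKM, and the lysosomal protease CTSD at 423 ± 141 against 137 ± 11.9. HCC38 led in MDK, the heparin-binding growth factor midkine (631 ± 32.7 against 12.3 ± 2.08 FPKM), and in TGFBI, a matrix protein induced by TGF-β (619 ± 38.9 against 147 ± 20.9). The cytokine MIF was abundant in both, at 796 ± 94.7 and 1250 ± 196 FPKM, but its counts were low beside these (32.0 ± 2.56 and 55.9 ± 9.48 CPM), so its level and the count-based test, which it did not pass, are uncertain.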
